A study of Mus musculus with 21 samples.

Results

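The genes described here are the mouse genes for the Wnt ligands and their cell-surface receptors. They are 31 of the 21887 protein-coding genes in the RefSeq gene table of GRCm38.p6 (mm10), and all 31 were matched by symbol: 19 Wnt genes (ligands), 10 Frizzled (Fzd) genes and the co-receptor genes Lrp5 and Lrp6 (12 receptors in all). Every deposited peak inside one of these gene bodies, or within 50 kb of one, was collected from each peak list. When overlapping peaks of the 8 ATAC-seq lists were merged, 146 of 51264 open regions met this rule, 89 of them at ligands and 57 at receptors. Of the 4548 merged ChIP-seq regions, 12 did.

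The series asked where the transcription factor Sox7 binds and how it changes open chromatin when it is induced in differentiating mouse embryonic stem cells. All samples came from A2lox-Sox7-Myc, a line derived from E14Tg2a that carries a doxycycline-inducible, Myc-tagged Sox7, so the uninduced controls carry the transgene too. Cells were grown as embryoid bodies, which are floating aggregates in which mesoderm forms, and were collected at day 4. Induced samples for ChIP-seq and ATAC-seq had received doxycycline at 1 µg/ml for the last 24 h, and uninduced samples had received none. ATAC-seq, which marks open chromatin by transposase insertion, had 2 libraries in each of 4 groups: uninduced and induced CPC (cardiac progenitors, sorted as PDGFRα+FLK1+) and uninduced and induced EPC (endothelial progenitors, sorted as PDGFRα-FLK1+). The growth protocol names a different gate, PDGFRα+FLK1-, and the groups follow the label of each sample. For anti-Myc ChIP-seq the cells were not sorted, and there were 4 lists without and 4 with doxycycline, and 1 input list from uninduced cells. The 4 RNA-seq samples, induced for 12 h, were not analysed here, so no value below is a transcript level.

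Wnt proteins are secreted, lipid-modified signals that bind the extracellular domain of a Frizzled receptor. When Lrp5 or Lrp6 joins the complex, β-catenin is stabilised and switches on target genes with TCF/LEF factors, while other Wnt and Frizzled pairs act on cell polarity and movement without β-catenin. In the embryo, Wnt signals first help to form mesoderm, and the canonical branch must later be held down for cardiac fate, whereas ligands such as Wnt11 act through the other branch.

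The ATAC lists held 23068 to 30732 peaks, the ChIP lists 772 to 2807 and the input list 689. The sequencing depth behind them is unknown, so a peak missing from a list can also mean a shallower library. In both cell types the second uninduced library had the shortest list (23068 peaks in CPC, 23694 in EPC), and the other ATAC lists held 27540 or more. Uninduced ChIP lists 2 and 4 shared 585 of 772 peak starts (75.8%, against at most 1.04% for any other ChIP pair) and were counted as 1 library. At the Sox7 gene, 1 open region in the gene body had a peak in 4 of 4 induced and 0 of 4 uninduced ATAC libraries. Of 10 endothelial and blood genes used to check the EPC label, 7 had a region open in all 4 EPC and no CPC library and 0 had the reverse. Of 8 cardiac and mesoderm genes used to check CPC, 2 (Tbx20 and Hand2) had a CPC-only region and 0 an EPC-only one. Over all protein-coding genes, 7.58% had an EPC-only region and 5.02% a CPC-only one. Each set of check genes had a median of 7.5 open regions per gene, against 4 for all genes, and the counts were not adjusted for this. Each library pools many cells, so an opening in fewer cells and a weaker opening per cell cannot be told apart.

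Most receptor starts had an ATAC peak in every library and most ligand starts did not. The RefSeq promoter table held 24 starts of 21 members, and 7 of them are shown here because CG-dense starts occur both with and without a peak. Each is the 250 bases before an annotated start (GRCm38.p6), written 5′ to 3′ on the gene's strand, with every CG dinucleotide in capitals.
Fzd4, chr7:89404116-89404365, plus strand: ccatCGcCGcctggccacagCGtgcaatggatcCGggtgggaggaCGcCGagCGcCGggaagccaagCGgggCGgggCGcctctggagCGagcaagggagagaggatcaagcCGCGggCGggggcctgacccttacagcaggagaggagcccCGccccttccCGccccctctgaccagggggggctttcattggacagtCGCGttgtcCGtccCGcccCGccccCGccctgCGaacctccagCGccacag
Fzd7, chr1:59481897-59482146, plus strand: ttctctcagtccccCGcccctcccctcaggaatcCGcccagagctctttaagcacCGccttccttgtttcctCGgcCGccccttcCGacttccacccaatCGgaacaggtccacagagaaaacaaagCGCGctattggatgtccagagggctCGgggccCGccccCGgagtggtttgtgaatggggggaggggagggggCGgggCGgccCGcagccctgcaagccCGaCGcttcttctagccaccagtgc
Wnt2, chr6:18030446-18030695, minus strand: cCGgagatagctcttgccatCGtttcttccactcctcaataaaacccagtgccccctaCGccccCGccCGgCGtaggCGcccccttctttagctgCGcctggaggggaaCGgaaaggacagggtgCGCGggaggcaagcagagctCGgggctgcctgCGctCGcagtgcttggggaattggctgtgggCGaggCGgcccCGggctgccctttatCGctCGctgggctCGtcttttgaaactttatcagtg
Wnt16, chr6:22287977-22288226, plus strand: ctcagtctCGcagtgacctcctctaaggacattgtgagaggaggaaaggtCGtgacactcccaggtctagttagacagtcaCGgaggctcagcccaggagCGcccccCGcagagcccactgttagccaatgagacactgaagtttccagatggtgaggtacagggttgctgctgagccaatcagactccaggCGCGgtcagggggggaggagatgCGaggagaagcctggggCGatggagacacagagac
Wnt9a, chr11:59306680-59306929, plus strand: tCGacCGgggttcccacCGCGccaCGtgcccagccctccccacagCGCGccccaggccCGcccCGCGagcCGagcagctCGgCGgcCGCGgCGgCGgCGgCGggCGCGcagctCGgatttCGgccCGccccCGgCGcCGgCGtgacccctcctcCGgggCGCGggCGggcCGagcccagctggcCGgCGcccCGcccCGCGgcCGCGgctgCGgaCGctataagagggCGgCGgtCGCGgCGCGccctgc
Wnt3a, chr11:59290752-59291001, minus strand: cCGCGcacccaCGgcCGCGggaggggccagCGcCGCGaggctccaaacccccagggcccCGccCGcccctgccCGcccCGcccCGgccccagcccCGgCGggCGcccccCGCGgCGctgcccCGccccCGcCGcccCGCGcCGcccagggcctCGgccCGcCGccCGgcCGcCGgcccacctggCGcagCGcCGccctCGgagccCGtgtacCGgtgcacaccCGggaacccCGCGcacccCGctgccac
Wnt7a, chr6:91411354-91411603, minus strand: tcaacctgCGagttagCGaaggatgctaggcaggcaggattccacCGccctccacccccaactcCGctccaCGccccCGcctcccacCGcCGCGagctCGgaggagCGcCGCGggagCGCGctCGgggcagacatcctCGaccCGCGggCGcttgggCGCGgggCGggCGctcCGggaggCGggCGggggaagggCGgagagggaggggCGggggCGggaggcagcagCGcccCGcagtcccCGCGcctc
The first 4 starts had an ATAC peak in all 8 libraries. Wnt9a had one in 4 libraries, and Wnt3a and Wnt7a had none in any library. Wnt3a and Wnt7a hold more CG dinucleotides than the first 4 shown: 41 and 34, against 25 for Fzd4, 17 for Fzd7, 20 for Wnt2 and 9 for Wnt16. Of the starts open in all 8 libraries that are not shown, Fzd9 held 42, Fzd10 37, Fzd5 32 and Fzd1 12.

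All 6 receptor starts in the table (Fzd1, Fzd4, Fzd5, Fzd7, Fzd9 and Fzd10) carried an ATAC peak in 8 of 8 libraries. Of the 18 ligand starts, which belong to 15 genes, 2 did (Wnt2 and Wnt16) and 8 had no peak in any library. Over all 21263 starts of protein-coding genes in the table, 41.1% had a peak in all 8 libraries and 41.1% in none. By library, 4 to 8 ligand starts had a peak, and cell type did not separate these counts. In CPC the uninduced libraries had 8 and 4 and the induced ones 5 and 5, so these overlap. In EPC both uninduced libraries (8 and 6) lay above both induced ones (4 and 5), with 2 libraries a side and no test. The plot of gene starts by library shows a filled block of receptors above a mostly empty block of ligands.

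**Figure D1:**
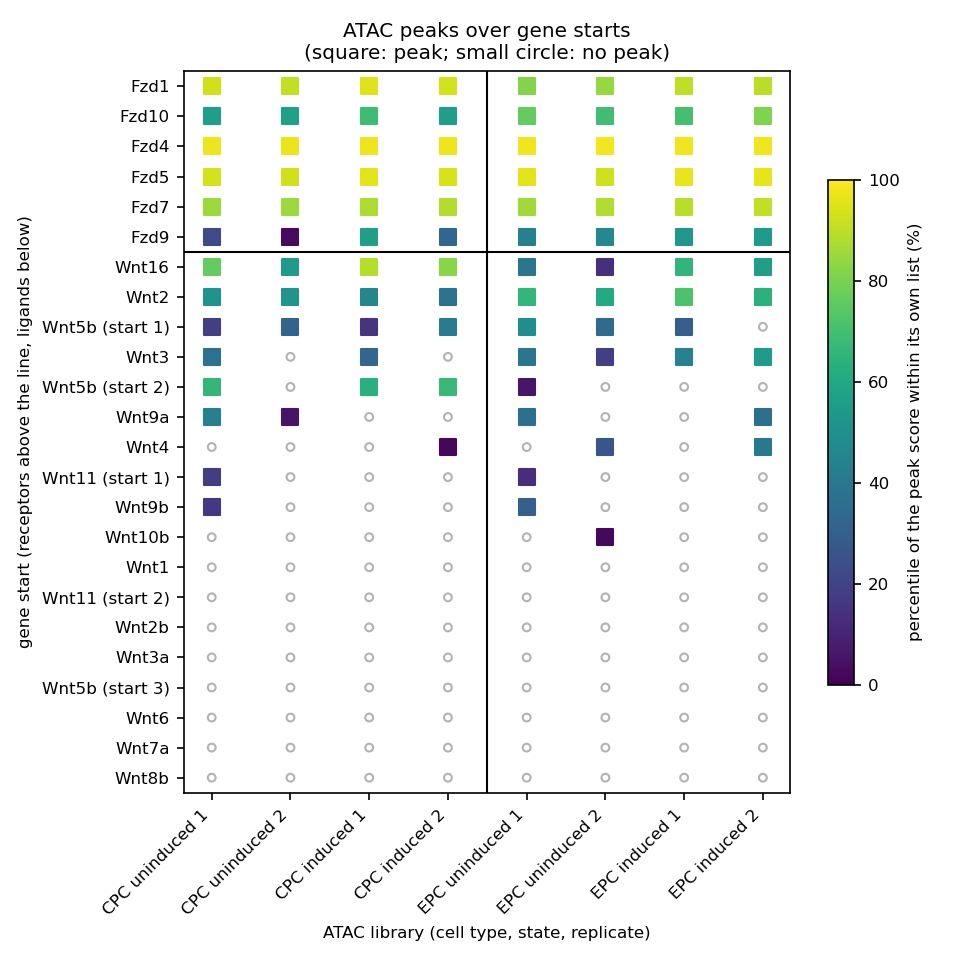
ATAC peaks over the 24 annotated gene starts of 21 members (rows) in the 8 ATAC libraries (columns). Squares are peaks, coloured by the percentile (%) of their score within their own list, and small circles are starts without a peak; the 6 receptor starts have squares in all 8 libraries, and 2 of 18 ligand starts do.

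Of the 6 receptor starts, 4 also ranked high within their own lists by score, the value the authors' peak caller gave each peak. Fzd4, which responds to Wnts and to the retinal vessel factor Norrin, had scores of 1869.7 and 1126.2 in uninduced CPC, 1858.4 and 1565.5 in induced CPC, 2766.2 and 1781.7 in uninduced EPC and 2254.0 and 2258.5 in induced EPC. These put it between the 97.1 and the 98.2 percentile of its list in every library. Fzd5, a receptor needed for yolk sac vessels, lay between the 92.3 and 96.5 percentiles, and Fzd1 between 81.4 and 95.1. Fzd7, a main Frizzled of pluripotent cells, lay between the 84.8 and 90.9 percentiles. Fzd10 and Fzd9 ranked lower, from 55.8 to 80.6 and from 2.8 to 56.1. Fzd9 was the weakest of the 6, with scores of 74.2 and 51.9 in uninduced CPC, 171.2 and 89.0 in induced CPC, 129.8 and 127.0 in uninduced EPC and 166.7 and 172.8 in induced EPC.

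The remaining receptors are not in the promoter table, so their gene boundaries were used instead. A region open in all 8 libraries lay within 1 kb of a gene boundary for 10 of 12 receptors (83.3%) and for 1 of 19 ligands (5.26%, Wnt16), against 43.8% of all protein-coding genes. A boundary is an end of the gene body and need not be the annotated start. The ligand count therefore misses the Wnt2 start, which was open in all 8 libraries. It also misses a region inside Wnt6, open in all 8 libraries and within 1 kb of the annotated Wnt6 start. At the boundary region Fzd2 had scores of 124.5 to 360.0 over the 8 libraries, Fzd8 of 297.8 to 986.6 and Lrp5 of 240.2 to 387.6. The receptors without a boundary region open in all 8 libraries were Fzd3 and Fzd6, both linked to planar cell polarity. For Fzd3, the region over its boundary had a peak in 7 libraries, all but the second uninduced EPC library. Fzd6 had a peak over its boundary in 2 libraries (uninduced EPC 1, score 56.3, and induced CPC 1, score 63.6). Lrp6, a co-receptor for β-catenin signalling, had scores of 471.1 and 222.7 in uninduced CPC, 458.0 and 446.9 in induced CPC, 796.5 and 345.4 in uninduced EPC and 625.8 and 679.9 in induced EPC at its boundary region.

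Only 2 ligand starts were open throughout. Wnt2, a ligand of the early heart field and of vessels, had scores of 161.4 and 134.0 in uninduced CPC, 127.9 and 98.2 in induced CPC, 295.2 and 193.2 in uninduced EPC and 347.5 and 247.6 in induced EPC. Its peak ranked higher in EPC (60.6 to 71.8 percentile of the list) than in CPC (37.2 to 52.2), without overlap. Such a split was not particular to Wnt2. The starts of Fzd4 (97.8 to 98.2 in EPC, 97.1 to 97.5 in CPC) and Fzd10 (69.2 to 80.6, 55.8 to 68.9) also ranked higher in EPC. The Fzd1 start ranked higher in CPC (91.0 to 95.1, against 81.4 to 90.0), and Fzd5, Fzd7 and Fzd9 overlapped. The share of all starts with such a split was not counted. Wnt16, known from blood stem cell specification, had 394.9 and 142.6 in uninduced CPC, 751.5 and 447.8 in induced CPC, 114.9 and 61.8 in uninduced EPC and 266.7 and 183.0 in induced EPC. Within its list the Wnt16 peak stood between the 54.5 and 89.0 percentiles in CPC and between 13.8 and 65.4 in EPC, so the ranges overlap. At a score of 100 or more neither ligand start is open in all 8 libraries, while 5 of the 6 receptor starts still are (all but Fzd9).

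The other ligand starts were open in some libraries or in none. Wnt3, needed for gastrulation, had a peak over its start in 6 libraries (2 CPC and all 4 EPC). Of the 3 starts of Wnt5b, one had a peak in 7 libraries, one in 4 (3 CPC and 1 EPC) and one in none. Wnt4 was open in 3 libraries, Wnt9b in 2, Wnt10b in 1, and Wnt11 in 2 at one start and 0 at the other. The starts of Wnt1, Wnt2b, Wnt3a, Wnt6, Wnt7a and Wnt8b had no peak in any library.

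CG content did not separate open from closed starts among the members. The median number of CG dinucleotides in the 250 bases was 28.5 over the receptor starts and 22.5 over the ligand starts, against 10 over all starts. The 8 member starts with no peak had a median of 31 (range 4 to 41), whereas all 8748 starts with no peak had a median of 2. The 8 member starts open in all libraries had a median of 22.5 (9 to 42), against 18 for the 8730 open starts of all genes. Short motifs were searched on both strands of the same 250 bases, each on its own. The SOX core ACAAT was in 3 of 24 member starts (12.5%) and in 25.1% of all starts. The TCF/LEF motif CTTTGA was in 3 member starts (12.5%) and in 12.7% of all starts. The GATA motif, written GATAA, was in 3 member starts (12.5%) and in 20.5% of all starts.

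Around the genes, ligands and receptors had similar numbers of open regions. Ligand windows held a median of 6 merged regions (range 1 to 14) and receptor windows 4 (1 to 10), against 4 for all protein-coding genes, of which 10.6% had none. Wnt11 had the most (14 regions), then Wnt5b (13), and Wnt9b and Lrp6 (10 each), while Wnt4, Wnt5a and Fzd1 had 1. Gene bodies differ in size, with medians of 22906 bp for ligands, 5277 bp for receptors and 17169 bp for all genes. Pairs of neighbouring ligand genes share regions: Wnt6 with Wnt10a (7), Wnt3 with Wnt9b (6), Wnt1 with Wnt10b (5) and Wnt3a with Wnt9a (3). Of the 146 regions, 54 lie inside a member's body, and for 56 the nearest protein-coding gene is not a member, so a region near a gene is described by place only. Open in all 8 libraries were 17 of 89 ligand regions (19.1%) and 19 of 57 receptor regions (33.3%), against 28.6% of the 43079 regions within 50 kb of any protein-coding gene and 25.5% of all regions. At least 1 such region lay in the windows of 13 ligands and 11 receptors (24 of 31, 77.4%), against 71.4% of all genes.

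**Figure D2:**
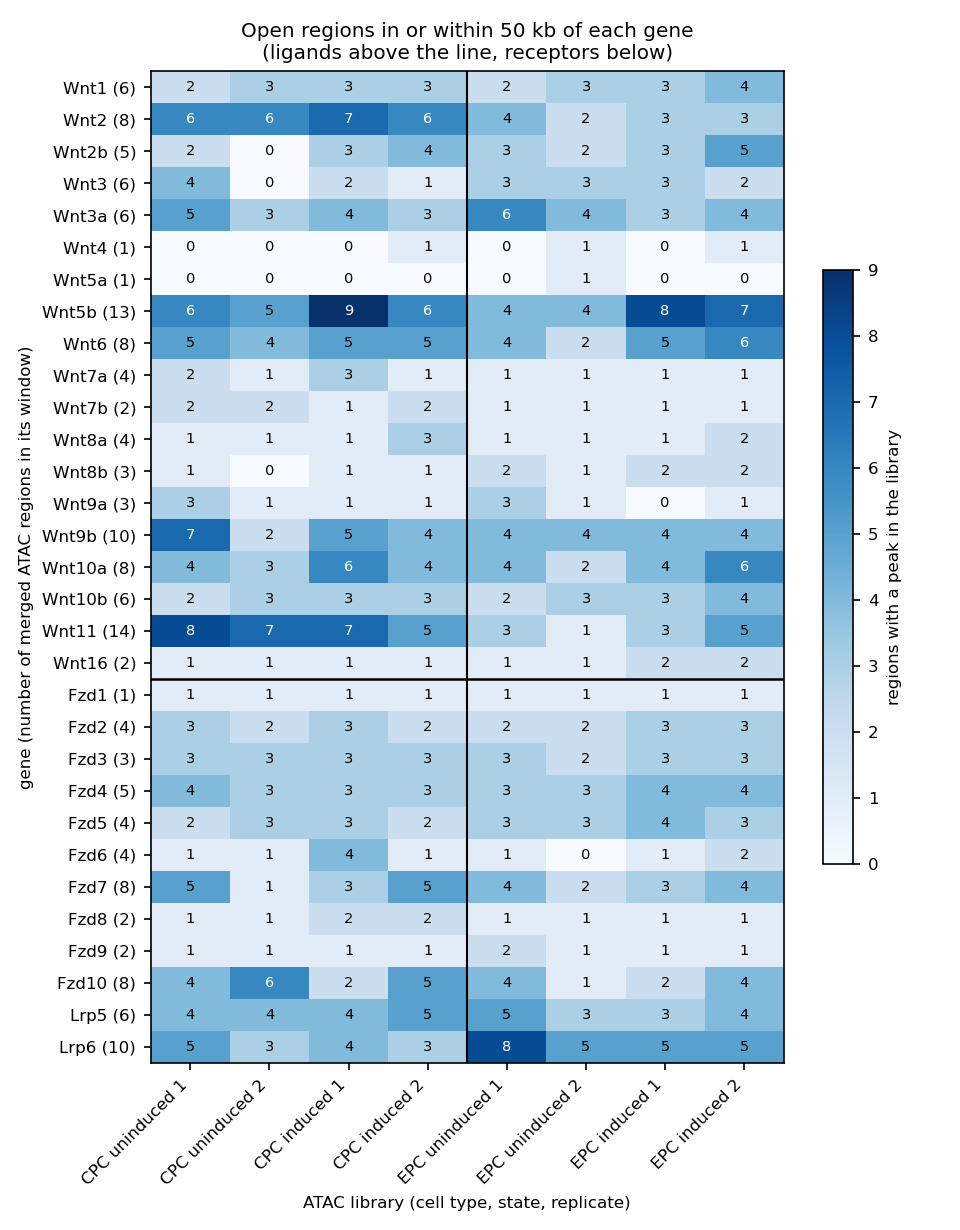
Number of merged ATAC regions with a peak in each library (columns) in the window of each of the 31 genes (rows; the total number of regions is in brackets), ligands above and receptors below the line. Wnt2 has 6 or 7 in every CPC library and 2 to 4 in every EPC library, and Fzd1 has 1 in all 8.

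Ligand windows held more peaks in CPC than in EPC, and receptor windows did not separate the populations. Per 1000 peaks of a list, the ligand windows held 1.89 and 1.60 peaks in uninduced CPC, 1.81 and 1.68 in induced CPC, 1.36 and 1.27 in uninduced EPC and 1.45 and 1.59 in induced EPC. All 4 CPC libraries lay above all 4 EPC libraries, by a small gap (1.75 ± 0.13 against 1.42 ± 0.136, SD, n = 4 each). The receptor windows held 1.27 ± 0.0705 in CPC and 1.24 ± 0.107 in EPC (SD, n = 4 each), and these ranges overlap. The windows of all protein-coding genes went slightly the other way, with 869 to 884 per 1000 in CPC and 877 to 899 in EPC. With a 10 kb window the ligand difference of 0.327 peaks per 1000 was 0.133, and at a score of 100 or more it was 0.211. No p is given for a value summed over chosen genes. Most of the ligand difference came from Wnt2 and Wnt11. Without these genes, which were left out after their values were seen, it fell from 0.327 to 0.0434 peaks per 1000, and the libraries overlapped (1.04 to 1.34 in CPC, 1.11 to 1.33 in EPC).

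**Figure D3:**
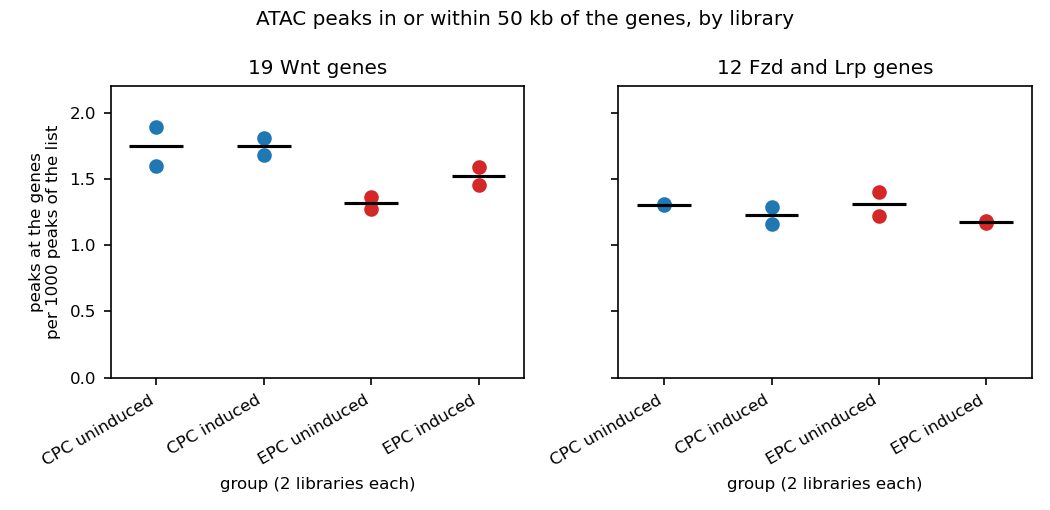
ATAC peaks in or within 50 kb of the 19 Wnt genes (left) and the 12 Fzd and Lrp genes (right), per 1000 peaks of the list. Points are libraries and lines are group means; for ligands every CPC point (1.60 to 1.89) is above every EPC point (1.27 to 1.59), and for receptors they mix.

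Wnt2 was the member whose number of open regions separated the sorted populations, with more in CPC. The peak over its start went the other way and ranked higher in EPC, as given above. Of the 8 regions in its window, 6 and 6 had a peak in uninduced CPC, 7 and 6 in induced CPC, 4 and 2 in uninduced EPC and 3 and 3 in induced EPC. No EPC library reached the lowest CPC library. Such a split towards CPC was found for 1.67% of the 19564 genes with a region, and one towards EPC for 3.31%; of the members, Wnt2 was in the first set and none in the second. Wnt11, a non-canonical ligand needed for heart development, had 8 and 7 regions in uninduced CPC, 7 and 5 in induced CPC, 3 and 1 in uninduced EPC and 3 and 5 in induced EPC. Its groups meet at 5. Lrp6 leaned to EPC (5, 3, 4 and 3 in CPC, 8, 5, 5 and 5 in EPC, uninduced first) and also overlaps at 5.

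A CPC-only region has a peak in all 4 CPC libraries and in no EPC library. The rule held for 5 of 146 member regions (3.42%), against 1.5% of regions within 50 kb of a gene and 1.8% of all regions. The reverse, open in all 4 EPC libraries only, held for 0 member regions, against 1.98% near genes and 2.1% of all regions. The CPC-only regions lay at Wnt2 (2 regions), Wnt9b, Fzd10 and Lrp5. For each, the rule itself fixes the exact two-sided permutation test of presence at p = 0.0286, the smallest that 4 against 4 libraries allow. After Benjamini-Hochberg adjustment over all 51264 regions it was 0.733, and no region of the genome passed 0.05, with 1999 regions at an unadjusted p under 0.05. The CPC-only count fell to 3 at a score of 100 or more, where the EPC-only count was 1, and to 2 with a 10 kb window or in gene bodies alone. Leaving out induced CPC library 1 or 2 raised the CPC-only count to 8 or 9, since fewer libraries must then carry a peak. The EPC-only count became 1 without either of these libraries and also without uninduced EPC library 2.

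The strongest CPC-only region at Wnt2 lay 42.6 kb from the gene, inside the neighbouring gene St7 (chr6:17941684-17942902). Its scores were 377.0 and 176.6 in uninduced CPC and 264.6 and 222.9 in induced CPC, and it had no peak in EPC. The other Wnt2 region, inside the gene (chr6:18002857-18003758), had 170.3 and 91.0 in uninduced CPC and 85.3 and 106.2 in induced CPC. As the CPC-only rule requires, both had peaks before and after induction. In the same neighbourhood a region 45.9 kb from Wnt2, also inside St7, had a peak in all 8 libraries (chr6:17938002-17939554).

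At Wnt9b, a canonical ligand known from kidney and face development, the CPC-only region lay 24 kb from the gene and 4.62 kb from Gosr2 (chr11:103702339-103703325). It had 289.0 and 155.0 in uninduced CPC and 336.1 and 199.8 in induced CPC. Among receptors, the region 42.7 kb from Fzd10 (chr5:128557272-128558366) had 135.7 and 139.0 in uninduced CPC and 105.3 and 62.8 in induced CPC. Both states of CPC carried these peaks, as the rule requires. The region inside Lrp5 (chr19:3642002-3643309) had 263.4 and 138.4 in uninduced CPC and 59.3 and 63.5 in induced CPC, so its induced scores were low but still above the list minimum of 50.

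A further 9 member regions (6.16%) had a peak in 3 of 4 CPC libraries and in no EPC library, against 1.84% of regions near genes. They lay at Wnt11 (3 regions), Wnt2, Wnt5b, Wnt7b, Wnt9b, Fzd6 and Fzd10. With 3 EPC and no CPC libraries there was 1 (0.685%, against 2.12% near genes), 31.3 kb from Fzd10 (chr5:128568788-128569847), with scores of 82.2 in uninduced EPC library 1 and 343.4 and 418.2 in induced EPC. Fzd10 thus had regions that leaned to each population. These 3-of-4 counts were chosen after the values were seen.

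After induction, 6 member regions were gained in CPC (4.11%), where gained means present in both libraries with doxycycline and absent from both without it. The background was 5.24% of regions near genes and 5.75% of all regions. In EPC 8 were gained (5.48%), against 5.67% near genes and 6.12% of all regions. Both shares are near the background. No member region was gained in both cell types. By class, 4 of 89 ligand regions and 2 of 57 receptor regions were gained in CPC, and 5 and 3 in EPC. All 6 and all 8 also overlap the authors' deposited lists of gained regions for the same cell type. Those lists were derived from the same libraries, so the overlap is not separate support. With 2 against 2 libraries no exact test can go below p = 0.333, and pooling both cell types it cannot go below 0.0556, so induction was described and not tested. Leaving out 1 library loosens the rule and raised the CPC count to 12 (without induced library 1), 18 (induced 2), 15 (uninduced 1) or 8 (uninduced 2), and the EPC count to 22 (induced 1), 15 (induced 2), 13 (uninduced 1) or 9 (uninduced 2). Stricter settings lowered them: the CPC count was 2 at a score of 100 or more, 3 with a 10 kb window and 1 in gene bodies alone, where the EPC count was 3.

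**Figure D4:**
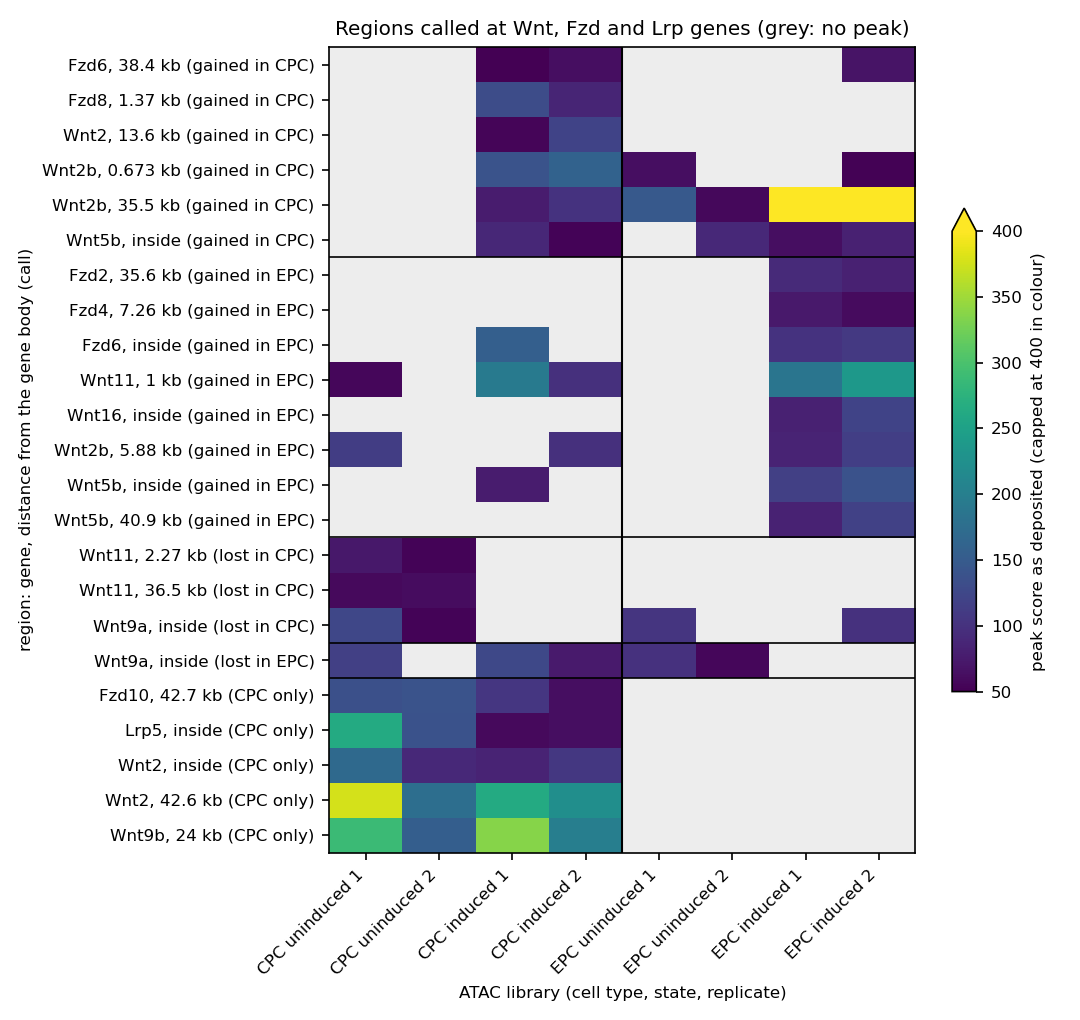
Scores of the 23 member regions called as gained, lost or CPC-only (rows, with the gene and the distance from its body) in the 8 ATAC libraries (columns). Grey cells have no peak, and the colour scale is capped as marked; the 5 CPC-only rows are filled on the left side only, and the brightest cells, at Wnt2b 35.5 kb away, are in induced EPC although that region is called in CPC.

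Among ligands, Wnt2b, a canonical ligand close in sequence to Wnt2, had 3 gained regions. The one 35.5 kb away, nearer to Cttnbp2nl (chr3:104997191-104998318), had no peak in uninduced CPC, 77.0 and 101.9 in induced CPC, 147.8 and 58.0 in uninduced EPC and 414.2 and 557.0 in induced EPC. It was thus gained in CPC but already open in EPC. The region 0.673 kb from Wnt2b, inside St7l (chr3:104942477-104944132), had no peak in uninduced CPC, 139.1 and 160.3 in induced CPC, 62.8 in uninduced EPC library 1 and 51.4 in induced EPC library 2. The third, 5.88 kb away, was gained in EPC (84.8 and 114.8) and had a peak in 1 library of each CPC state.

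Wnt5b, a non-canonical ligand, also had 3. The region 40.9 kb away inside Erc1 (chr6:119585745-119586648) had 83.8 and 117.2 in induced EPC and no peak in any other library. Inside Wnt5b, one region was gained in EPC (116.8 and 138.0) with a peak in induced CPC library 1 too, and one in CPC (89.1 and 53.3) with peaks in 3 EPC libraries. Of these 3, the Erc1 region alone was limited to the induced libraries of 1 cell type. Wnt16 and Wnt2 each had a region of this kind: the region inside Wnt16 (chr6:22293822-22294478) had 82.3 and 120.4 in induced EPC alone, and the one 13.6 kb from Wnt2 (chr6:17971061-17971846) 54.7 and 120.3 in induced CPC alone.

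At Wnt11 the called regions went in both directions. The region 1 kb from the gene (chr7:98855748-98856942) had 55.9 and no peak in uninduced CPC, 194.9 and 98.2 in induced CPC, no peak in uninduced EPC and 186.3 and 236.1 in induced EPC. All 4 induced libraries thus carried it, against 1 of 4 uninduced ones. A region 2.27 kb from the gene was lost in CPC (72.0 and 53.4 before, none after), as was one 36.5 kb away (59.5 and 61.9), and neither had a peak in EPC.

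Among receptors, Fzd6 had a gained region inside the gene (chr15:39009688-39010446), with no peak in 4 of 4 uninduced libraries, 156.3 in induced CPC library 1 and 101.3 and 108.1 in induced EPC. Its other gained region, 38.4 kb away inside Cthrc1, was called in CPC (50.6 and 63.4) and had a peak in induced EPC library 2 (68.5). Neither had a peak without doxycycline. Fzd8 had a region gained in CPC 1.37 kb from the gene (131.3 and 85.8, no peak in EPC). The region 35.6 kb from Fzd2 (92.2 and 82.2) and the one 7.26 kb from Fzd4, inside Tmem135 (73.7 and 59.9), had peaks in induced EPC alone.

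By the same rule reversed, 3 member regions were lost in CPC (2.05%, against 2.14% near genes and 2.35% of all regions) and 1 in EPC (0.685%, against 1.78% and 1.82%). All 4 lay at ligands. Apart from those at Wnt11, they were at Wnt9a, a ligand of joint and liver development. The region over its start (chr11:59306447-59307238, which covers the sequence shown above) had 125.0 and 53.8 in uninduced CPC, none in induced CPC, 103.9 in uninduced EPC library 1 and 100.5 in induced EPC library 2. A region inside the gene (chr11:59308785-59309818) had 116.5 in uninduced CPC library 1, 125.9 and 75.7 in induced CPC, 99.3 and 55.8 in uninduced EPC and none in induced EPC. The Wnt9a regions were thus lost in different populations. The lost count rose to 7 in CPC without induced library 1 or induced library 2 and to 13 without uninduced library 2. In EPC it rose to 2, 5 and 11 without induced library 1, uninduced library 1 and uninduced library 2. Whether gains or losses were more numerous depended on the setting. In CPC, losses outnumbered gains at a score of 100 or more (5 lost, 2 gained), with lists of equal length (8 lost, 5 gained) and without uninduced library 2 (13 lost, 8 gained). In EPC they did so without uninduced library 2 (11 lost, 9 gained).

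In all, 23 of 146 member regions (15.8%) had one of these calls or an EPC-only call, against 17.2% of regions near genes. Counted by gene, 14 of 31 members (45.2%) had at least 1 gained, lost or CPC-only region: 8 ligands and 6 receptors. Among all protein-coding genes the share was 44.6%. Wnt3a is counted through regions it shares with Wnt9a. The 17 members without a call were 11 ligands and 6 receptors. They include Fzd1, whose single region had a peak in all 8 libraries, and Wnt5a, a non-canonical ligand of mesoderm, whose single region had a peak in uninduced EPC library 2 alone (58.5).

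Anti-Myc ChIP peaks at these genes were few. They were denser than around genes in general in each of the 4 induced lists, but also in uninduced lists 1 and 3. The induced lists held 7, 5, 9 and 3 peaks in the member windows, or 1.9, 1.36, 2.45 and 0.815 per Mb, against 0.672, 0.815, 1.3 and 0.461 per Mb in the windows of all protein-coding genes. The uninduced lists held 4, 1, 4 and 1, or 1.09, 0.272, 1.09 and 0.272 per Mb, against 0.388, 0.442, 0.452 and 0.326. The input list held 1. ATAC peaks too were denser in the member windows in every library (16.0 to 23.9 per Mb, against 12.1 to 16.0). How this bears on the ChIP density was not tested. None of the 12 member regions had a peak in 3 or more induced lists and no uninduced list, a pattern found in 5.17% of all ChIP regions. An exact permutation test of 4 against 3 libraries cannot go below p = 0.0571, and 0 ChIP regions of any gene reached an unadjusted p under 0.05. Leaving out 1 induced library, with 2 of the other 3 then required, gave 2, 2, 1 and 5 member regions without lists 1, 2, 3 and 4.

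With peaks in 2 induced and no uninduced list there were 5 of 12 member regions (41.7%), against 14.4% of all ChIP regions with 2 or more. They lay at Wnt2b (73.0 in induced list 1 and 50.6 in list 3), Wnt5b (48.3 in list 2 and 61.1 in list 3), Wnt9a, 29.4 kb away (40.7 and 50.8 in the same lists), Fzd6 (44.2 in list 1 and 44.3 in list 3) and Fzd7, 29.4 kb away (40.6 in list 1 and 58.9 in list 2). The authors' deposited list of Sox7 regions includes those at Wnt2b, Wnt5b, Wnt9a and Fzd6, and a further one at Fzd9. Within their own lists the peaks of the 5 regions without an uninduced peak ranked from the 2.54 percentile (Wnt9a, list 2) to the 59.7 percentile (Wnt2b, list 1). The Wnt2b, Wnt5b and Fzd6 peaks overlap gained ATAC regions described above: the CPC region 0.673 kb from Wnt2b, the EPC region inside Erc1 and the EPC region inside Fzd6. Over all 653 ChIP regions with 2 or more induced and no uninduced lists, 202 (30.9%) overlapped a gained region of either cell type. ChIP was done on unsorted cells, so these peaks cannot be placed in CPC or EPC. A single peak (57.3, induced list 1) overlapped the gained region 35.6 kb from Fzd2.

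**Figure D5:**
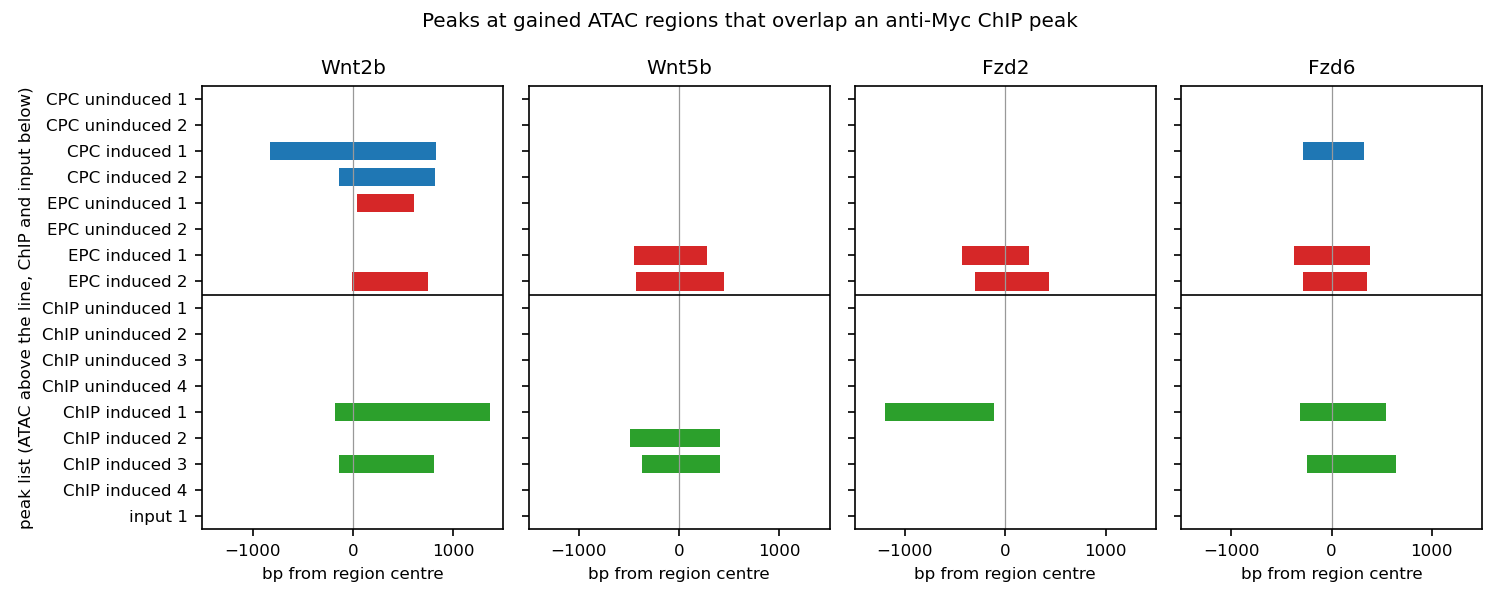
Extent of each peak, in bp from the centre of the merged ATAC region, at the gained regions near Wnt2b, Wnt5b, Fzd2 and Fzd6 that overlap an anti-Myc ChIP peak. Bars are single peaks (blue CPC ATAC, red EPC ATAC, green ChIP) in each list; all ChIP bars are in induced lists, 2 of 4 for Wnt2b, Wnt5b and Fzd6 and 1 for Fzd2, and the uninduced ChIP lists and the input have none.

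Of the other ChIP regions at members, 4 also had peaks without induction: those at Fzd9, Wnt11 and Wnt7b and one at Lrp5. The region 16 kb from Fzd9 had 95.4, 61.6 and 62.2 in induced lists 2 to 4 but also 77.2 in uninduced list 1. The region 18.7 kb from Wnt11 had 54.6 and 227.1 in induced lists 1 and 3 and 46.8 and 55.3 in uninduced lists 1 and 3, over chromatin open in all 8 ATAC libraries. Inside Wnt7b (chr15:85541644-85542775) every list had a peak: 267.2, 268.5, 228.1 and 153.5 induced, 324.8, 264.7, 313.1 and 270.2 uninduced and 73.9 in the input. The Wnt7b peak was thus there with and without doxycycline and also in the input. Of 2 ChIP regions at Lrp5, the one 7.89 kb away had peaks in 3 induced and 2 uninduced lists, and the one inside the gene a single peak (51.8, induced list 3). The last member region, 20.9 kb from Wnt3a, had a single peak, in uninduced list 3 (47.4).

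Beyond ligands and receptors, 62 further genes of the pathway were examined, all matched. A region gained in CPC lay at 15 of them (24.2%, against 18.5% of all genes) and one gained in EPC at 13 (21.0%, against 19.6%). Lost regions lay at 7 in CPC (11.3%, against 8.36%) and 4 in EPC (6.45%, against 7.07%), CPC-only regions at 6 (9.68%, against 5.02%) and EPC-only regions at 4 (6.45%, against 7.58%). Of the members, 4 (12.9%) had a CPC-only region. These are shares of genes, and a gene with more regions in its window has more chances of a call. The median number of regions was 5 to 9 by role for the 62 genes, against 4 for all protein-coding genes. The shares were not adjusted for this. Among 17 secreted or membrane inhibitors, 6 had a region gained in CPC, 3 one gained in EPC and 2 a CPC-only one. Frzb, a secreted Wnt-binding inhibitor, had a region 12.5 kb away that was gained in both cell types (chr2:80398340-80399498), with no peak in 4 uninduced libraries, 165.3 and 94.4 in induced CPC and 93.1 and 66.8 in induced EPC. Kremen1, which with Dkk proteins removes Lrp6 from the surface, had a CPC-only region inside the gene (259.8 and 167.3 uninduced, 307.1 and 250.5 induced).

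Among 14 agonists, secretion factors and other receptors, 2 had a region gained in CPC and 4 in EPC, against 18.5% and 19.6% of all genes. Lgr4, a receptor for R-spondins, had a CPC-only region inside the gene (562.7 and 189.5 uninduced, 85.3 and 87.4 induced), a weaker CPC-only one and one lost in CPC. Ror2, a receptor for Wnt5a, had one gained in CPC (282.3 and 155.8 induced) with a peak of 86.9 in induced EPC library 2, and a further one gained in EPC. Among 15 intracellular components, 2 had a region gained in CPC, 3 in EPC and 4 one lost in CPC (8.36% of all genes had a lost one). Their windows held a median of 7 regions, against 4 for all genes, and these counts were not adjusted for this. Vangl2, a planar cell polarity protein, had a region inside the gene with no peak in uninduced CPC, 672.2 and 700.0 in induced CPC, 129.9 and 50.1 in uninduced EPC and 964.2 and 647.3 in induced EPC. Other regions at Vangl2 were CPC-only, EPC-only and lost in CPC. Its relative Vangl1, named here after its values were seen, had a region inside the gene that was lost in CPC (194.1 and 133.9 before, none after) and gained in EPC (none before, 152.0 and 121.2 after). Of all the regions at these 62 genes it is the single one that went in opposite directions.

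Among 8 nuclear factors, 4 had a region gained in CPC and 2 in EPC, against 18.5% and 19.6% of all genes. Their windows held a median of 9 regions, against 4 for all genes, and these counts were not adjusted for this. Tcf7l1, a mainly repressive TCF, had an EPC-only region 35.6 kb away (284.6 and 150.7 uninduced, 203.7 and 101.5 induced) and 2 inside the gene gained in EPC (264.8 and 196.8, and 152.5 and 135.0). The same gene had a region 44.5 kb away that was gained in CPC (98.1 and 76.5) and 2 inside it that were lost in CPC (107.6 and 73.8, and 60.8 and 64.1). Lef1, another factor of the family, is named outside the rule for other pathway genes and had 2 CPC-only regions. Among 8 target genes of mesoderm, 1 had a region gained in CPC and 1 in EPC. Mesp1, the early cardiac mesoderm factor, was the CPC one, with 2 gained regions. The region 2.04 kb away had 117.8 and 194.6 in induced CPC and no peak in the other 6 libraries. The region 4.77 kb away had 170.1 and 100.2 in induced CPC and also 67.6 in uninduced EPC library 2 and 69.6 and 58.7 in induced EPC.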

How the data were processed

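The deposited files used here are peak lists, 1 per ChIP-seq, input or ATAC-seq library, whose values are a score per peak as deposited by the authors. In MACS 1.4 output a score is 10 times the negative log10 of p. The build is GRCm38 (mm10) per the submitters' processing notes, which also name, without saying what each did, Trimmomatic, Bowtie2, SAMtools, MACS 1.4 and bedtools. No list holds read counts, so depth and its precision are unknown. The authors' derived lists of gained and Sox7-bound regions have no score and were used only to check overlap. They come from the same libraries, so overlap with them is not separate support.

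Peaks of an assay that overlapped by 1 bp or more were merged into regions (Python 3.11.15, pandas 2.3.3, numpy 2.4.6), and a region's score in a library is its highest peak there. Regions were joined to gene bodies extended by 50 kb. Gained or lost means a peak in both libraries of one state and neither of the other. Presence was compared by two-sided exact permutation tests with Benjamini-Hochberg adjustment over all regions of the assay. Percentiles of scores were taken within a list. Scores averaged over lists chose which regions were named. Scores of different lists are shown side by side without adjustment for depth. The labels do not say whether replicates are separate cultures, so a p-value here reflects only how these libraries vary, which may be technical.

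Members and lists were chosen with earlier results of these data known. Named genes are members with a called region or with a ChIP peak in 2 or more induced lists, and those with an always-open start. Of other pathway genes, those gained in both cell types or with the highest mean score per role are named, at most 2 a role. Lef1 was named outside this rule, and Vangl1 after its values were seen. Same-numbered libraries did not deviate together (correlations -0.00866 to 0.0102 for ATAC, -0.0975 to 0.059 for ChIP), so replicate numbers were not used as pairs. Alternatives varied the score minimum, list length, window, merging distance and libraries. Sequences come from the RefSeq promoter table of GRCm38.p6. Sequences of peaks were not used here, as no genome was.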

Additional observations from a re-analysis of the deposited data

How the results depend on the processing

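Of the counts of member regions, gained CPC (6 as reported) became 2 at a score of 100 or more, 3 with a 10 kb window and 1 in gene bodies only, and lost CPC (3) became 5 at a score of 100, 8 with lists cut to equal length and 1 in gene bodies. Gained EPC (8) became 3 in gene bodies, and lost EPC (1) became 0 at a score of 100 and 3 with equal lists. CPC-only (5) became 3 at a score of 100, 2 with a 10 kb window and 2 in gene bodies, and EPC-only (0) became 1 at a score of 100. Leaving out 1 library at a time gave 8 to 18 gained and 4 to 13 lost in CPC, 9 to 22 gained and 1 to 11 lost in EPC, 5 to 9 CPC-only and 0 to 1 EPC-only. Merging peaks within 200 bp kept each of these counts within 1.5 times. The ligand excess of CPC over EPC (0.327 peaks per 1000) was 0.133 with a 10 kb window, 0.0434 without Wnt2 and Wnt11, and 0.276 to 0.386 without 1 library. The receptor difference (0.0219) turned to -0.065 with equal lists and ranged from -0.00153 to 0.0734 without 1 library, being -5.02e-05 without induced EPC library 1, so it has no stable sign. The ligand starts open in all libraries (2) fell to 0 at a score of 100 or more and were 2 to 3 without 1 library, and the receptor starts (6) stayed at 6 without 1 library. Leaving out a library only loosens this rule, so neither count could fall by it. Induced ChIP regions (0) became 5 with 2 of 4 induced lists required and 1 to 5 without 1 induced list. Counting all 4 uninduced lists could not change this count, since the main call already requires no peak in any of them. Where no other reason is given, the cause was not tested. The alternatives for gene starts and those leaving out 1 library or Wnt2 and Wnt11 for the peaks per 1000 were chosen after seeing the data.

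In the replicate block the call is made within pairs of the same number. For ATAC this asks for the same presences and absences as the main rule. The ATAC counts (6, 3, 8, 1, 5 and 0) could therefore not change, and their stability is not tested by it. The induced ChIP count became 1, the region near Fzd9. The numbers do not pair the samples in these lists.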

Other observations

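Beyond the called regions, Fzd7 had an open region 28.9 kb away (chr1:59515887-59517351) with a peak in 6 of 8 libraries, all but the second uninduced library of each cell type, which are the shortest lists. Its scores were 131.8 in uninduced CPC library 1, 83.9 and 128.7 in induced CPC, 98.2 in uninduced EPC library 1 and 197.2 and 278.9 in induced EPC. One of the ChIP regions found in 2 induced lists lies over it (chr1:59516367-59517239). The neighbouring body of Fzd7 held a further 2 regions that were open in 3 and 5 libraries, beside the start region open in all 8.

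Wnt6 and Wnt10a, which lie beside each other, share 7 regions, of which 2 had a peak in all 8 libraries. The one inside Wnt6 (chr1:74772735-74773739) had 142.7 and 179.4 in uninduced CPC, 232.3 and 140.9 in induced CPC, 151.6 and 167.5 in uninduced EPC and 200.9 and 202.0 in induced EPC. The annotated start of Wnt6 had no peak in any library.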
